A study of Mus musculus with 12 samples.

Results

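Genes that methylate DNA and silence retrotransposons were examined as RNAs in complexes of the LINE-1 protein ORF1p. The set has 10 members, taken by symbol from the gene rows of each table, and all 10 were listed among 20981 genes. They are Dnmt1, Uhrf1 and Hells (maintenance of DNA methylation), Dnmt3a, Dnmt3b and Dnmt3l (de novo methylation), Setdb1 and Trim28 (methylation of histone H3 on lysine 9), and Morc1 and Tex19.1 (silencing in germ cells). The rule names the members by function and uses no measured value, but they were proposed with earlier results of these data known.

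The RNA came from testes of C57BL/6 mice aged 3 months, and every library was of the genotype Mael-/-, so no animal with Mael was compared here. Mael encodes a protein of the piRNA pathway, and its loss leaves LINE-1 active in spermatocytes, the germ cells in meiosis. The 12 libraries formed 4 groups of 3. TOTAL was the clarified testis extract, and INPUT was sucrose gradient fractions 5 to 8 of that extract, run with 10 mM EDTA, which takes ribosomes apart. IP was what an antibody against ORF1p, the RNA-binding protein that LINE-1 encodes, brought down from INPUT on beads, and BO was what beads with no antibody held from the same pool. BO libraries were built from the RNA in a volume equal to that of the matching IP, not from an equal mass.

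DNA methylation is laid down on new sites by DNMT3 enzymes and copied after replication by DNMT1, which UHRF1 guides to half-methylated sites and for which HELLS opens chromatin. At many retrotransposons, KRAB zinc finger proteins bring TRIM28, and TRIM28 brings SETDB1, which methylates histone H3. In the male germ line these layers add to the piRNA pathway, and testes that lack a member such as Dnmt3l, Morc1 or Tex19.1 are known to express retrotransposons.

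The deposited gene values were the authors' mean of normalised counts per group, with 1 table for each of 3 comparisons of IP with another group. No library of these tables could be looked at alone. The tables' own standard errors and p-values belong to the authors' comparisons and were not used here, so no difference below was tested or set against replicate error, and the depth behind a value is unknown. The labels do not say whether the 3 libraries of a group came from different mice. In a separate table of repeats, with 1 column per library, large-subunit rRNA took 52.1% of the signal in BO replicate 3 and between 1.93% and 15.9% in the other 11 libraries, and BO replicate 3 is part of every BO mean below. The Mael row was listed at a mean of 0 in INPUT and IP, at 0.502 in BO and at 0.65 in TOTAL. IP means of the same gene differed between tables by a near-constant factor, 1.31 for the BO table and 1.004 for the TOTAL table, with a range over 6520 genes of 0.741% and 1.47%. All 4 groups were therefore put on the scale of the INPUT table, and levels below are on this joined scale. It rests on tables that were normalised separately.

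IP held the highest of the 4 group means for 9 of the 10 members. The same held for 35.7% of all genes whose mean over the groups reached 10. The exception was Dnmt3l, whose highest mean was in TOTAL. With each group centred on its median gene, IP was highest for 7 members and for 26.7% of genes, and Dnmt3a and Dnmt3b were the members that left.

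**Figure D1:**
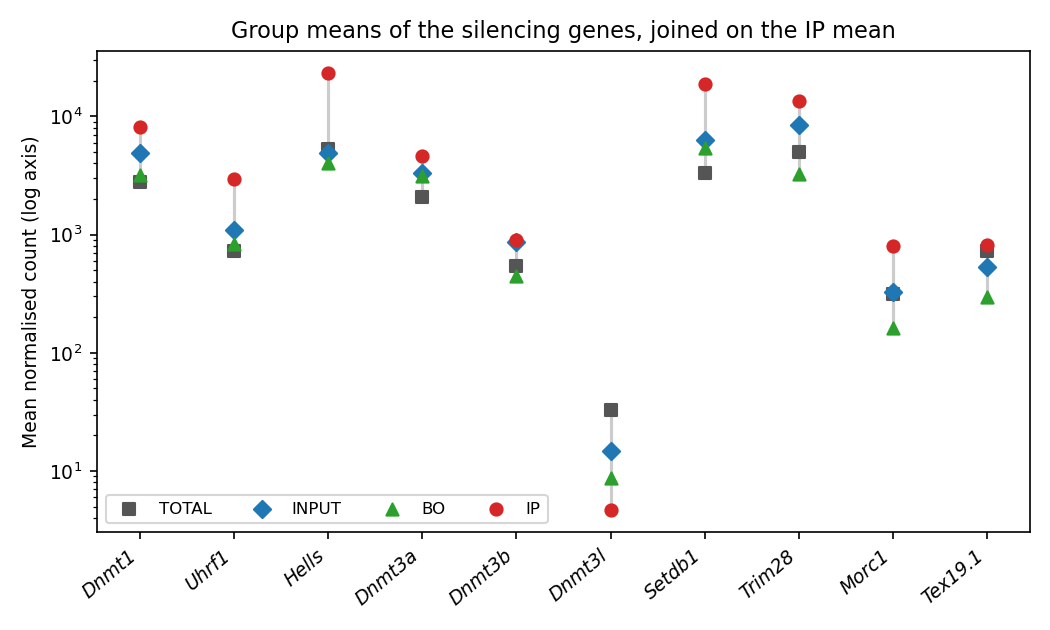
Mean normalised count of each of the 10 silencing genes (log axis, joined on the IP mean) in TOTAL, INPUT, BO and IP, 1 point per group mean, with grey lines joining the lowest and highest. IP is the top point for 9 genes, with Hells at 23405 and Setdb1 at 18740, while Dnmt3l runs the other way from 32.8 in TOTAL to 4.70 in IP.

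Among the maintenance genes, Dnmt1 encodes the methyltransferase that copies methylation onto the new strand. Its mean was 2769 in TOTAL, 4869.8 in INPUT, 3172 in BO and 8042 in IP. IP was thus the highest group for Dnmt1 and TOTAL the lowest, with INPUT and BO between them.

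Uhrf1, whose product binds half-methylated DNA and recruits DNMT1, had the same order of groups. Its mean was 732 in TOTAL, 1094 in INPUT, 833 in BO and 2934 in IP. For each Dnmt1 count there were 0.264 Uhrf1 counts in TOTAL and 0.365 in IP, a ratio within a group that no scaling between groups can move.

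Hells, which encodes a nucleosome remodeller of the SNF2 family needed for methylation of repeats, had the widest gap between IP and the next group. Its mean was 5312 in TOTAL, 4857 in INPUT, 3997 in BO and 23405 in IP. The first 3 groups lay near each other and IP stood far above them. The ratio of Hells to Dnmt1 was 1.92 in TOTAL, 0.997 in INPUT, 1.2602 in BO and 2.91 in IP.

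The de novo enzymes share with DNMT1 a catalytic loop whose core is a proline and a cysteine, the cysteine being the residue that attacks cytosine. It is shown here because it separates the 3 enzymes from DNMT3L. The coding sequences of the GENCODE M21 transcripts (build GRCm38, mm10) were read for codons of proline, cysteine and then glutamine or asparagine, and 27 coding bases are given, with these 3 codons in capitals.
Dnmt1: ggtgggccaCCCTGCCAGggcttcagt
Dnmt3a: ggaggcagtCCCTGCAATgacctctcc
Dnmt3b: ggtggaagcCCATGCAATgatctctct
The proline was codon 1228 of Dnmt1, codon 705 of Dnmt3a and codon 657 of Dnmt3b in the transcript with the longest coding sequence. Each of these coding sequences held the motif once, and the 421 codons of Dnmt3l held it 0 times. DNMT3L is known to bind and stimulate DNMT3A and to have no catalytic activity of its own.

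Dnmt3a encodes an active de novo enzyme. Its mean was 2065 in TOTAL, 3320.4 in INPUT, 3135 in BO and 4636 in IP. The 4 groups of Dnmt3a spanned less than those of Hells or Setdb1, and BO lay close to INPUT as deposited. This closeness depends on the scaling. Centred on the median gene, the log2 ratio of IP for Dnmt3a was -0.25 over BO and 0.33 over INPUT. BO was then its highest group.

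Dnmt3b had a mean of 542 in TOTAL, 873 in INPUT, 445 in BO and 904 in IP. INPUT and IP were nearly equal for Dnmt3b. The ratio of Dnmt3a to Dnmt3b was 3.81 in TOTAL, 3.80 in INPUT, 7.05 in BO and 5.13 in IP, so Dnmt3b counts were lowest beside those of Dnmt3a on beads without antibody. These are ratios of counts, not corrected for transcript length.

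Dnmt3l had the lowest mean in each group, also per length. Its mean was 32.8 in TOTAL, 14.7 in INPUT, 8.72 in BO and 4.70 in IP. These values are near the bottom of the measured range, and the counts behind them are unknown. Dnmt3l is known to act mainly in germ cells before birth, well before the age studied.

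Setdb1 encodes the methyltransferase that places the repressive mark on lysine 9 of histone H3. Its mean was 3286 in TOTAL, 6273 in INPUT, 5393 in BO and 18740 in IP. The order of groups was that of Dnmt1, with a wider range.

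Trim28, which encodes the scaffold that joins KRAB zinc finger proteins to SETDB1, had a mean of 4959 in TOTAL, 8435 in INPUT, 3269 in BO and 13491 in IP. As deposited, BO was the lowest group for Trim28, whereas TOTAL was the lowest for Setdb1. This contrast depends on the scaling. Centred on the median gene, the log2 ratio of IP for Trim28 was 1.23 over BO and 1.47 over TOTAL. TOTAL was then the lowest group for Trim28 as well as for Setdb1. There were 0.663 Setdb1 counts per Trim28 count in TOTAL and 0.744 in INPUT, against 1.65 in BO and 1.39 in IP, so the ratio of counts was higher on both kinds of beads than before them. Per kilobase of the longest annotated transcript, Trim28 stayed above Setdb1 in all 4 groups, at 1007 against 954 in BO and 4158 against 3316 in IP. The longest transcript of Setdb1 has 5652 bases and the one with its longest coding sequence 4658. For Trim28 both are 1 transcript of 3245 bases. The order of the 2 genes in BO therefore depends on the transcript taken.

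Morc1 encodes an ATPase of the MORC family that silences retrotransposons in the male germ line. Its mean was 311 in TOTAL, 328 in INPUT, 163 in BO and 804 in IP. TOTAL and INPUT were close, BO was the lowest and IP the highest.

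Tex19.1 encodes a germ cell protein that restrains retrotransposons and, with the ubiquitin ligase UBR2, is known to act on ORF1p itself. Its mean was 725 in TOTAL, 533 in INPUT, 296 in BO and 822 in IP. IP and TOTAL were close for Tex19.1, which sets it apart from Hells, the other member with TOTAL in second place as deposited. After centring on the median gene, TOTAL stayed second for Tex19.1 but not for Hells. The centred log2 ratio of IP for Hells was 1.74 over BO, 2.12 over INPUT and 2.16 over TOTAL, so BO came second and TOTAL was lowest. The ratio of Hells to Tex19.1 was 7.33 in TOTAL and 28.5 in IP, and that of Morc1 to Tex19.1 was 0.429 in TOTAL and 0.978 in IP. Tex19.1 has a paralogue, Tex19.2, and the tables keep reads with several places in the genome in a row of their own, outside the genes. The ratio of Tex19.1 to Tex19.2 was 0.577 in TOTAL, 0.687 in INPUT, 0.910 in BO and 1.08 in IP.

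Levels of different members were ranked per kilobase of the longest annotated transcript. In TOTAL, Trim28 was the highest at 1528 counts per kilobase, followed by Hells at 905, Setdb1 at 581, Dnmt1 at 472 and Tex19.1 at 416. Dnmt3a at 213, Uhrf1 at 204, Dnmt3b at 125, Morc1 at 77.6 and Dnmt3l at 18.03 came below. In IP the top 3 were again Trim28 (4158), Hells (3989) and Setdb1 (3316), with Dnmt1 (1370.1) next, whereas Uhrf1 (818) stood above Dnmt3a (479) and Tex19.1 (471). Dnmt3b (209), Morc1 (200.4) and Dnmt3l (2.58) closed the order. Whether neighbours in these orders differ beyond replicate spread was not tested. With the median transcript length in place of the longest, the TOTAL level per kilobase of Hells became 6806, of Trim28 6089, of Dnmt3a 2516 and of Tex19.1 674, so these 4 levels, and ranks among the upper members, depend on the transcript taken, while Uhrf1, Dnmt3b, Morc1 and Dnmt3l kept the lowest places in TOTAL. The order in IP depended on it too. By the median length, Hells (29987) stood above Trim28 (16564), Dnmt3a (5650) above Setdb1 (4076) and Morc1 (264) above Dnmt3b (221) in IP. Together the members took 0.126% of the summed gene means in TOTAL, 0.188% in INPUT, 0.107% in BO and 0.313% in IP.

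Which RNAs the antibody held beyond the beads is addressed by IP against BO. The log2 ratio was taken as log2((IP mean + 1)/(other mean + 1)) within 1 table, which understates the difference of low genes, and a gene counted only with a mean over both groups of at least 10. Of the 10 members, 9 met that minimum, and 8 of the 9 were more than 2-fold higher in IP than in BO, beside 43.9% of 13634 genes. The median gene was itself 0.81 higher in IP on this scale, so values centred on the median gene are given beside the deposited ones for BO and INPUT. After centring, 4 of 9 members were more than 2-fold higher, beside 18.3% of genes, and 0 were more than 2-fold lower, beside 24.1%. The median log2 ratio of the members was 1.80 as deposited and 0.99 when centred.

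Hells had the highest ratio of the set over BO, 2.55 (5.85-fold), or 1.74 centred. Morc1 followed at 2.30 (4.91-fold), or 1.49 centred, and Trim28 at 2.05 (4.13-fold), or 1.23 centred. These 3 members lay above most genes, and Hells was higher than 94.9% of them.

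Uhrf1 had a ratio of 1.81 (1.003 centred) and Setdb1 of 1.80 (0.99 centred), values just inside and just outside 2-fold after centring. Tex19.1 had 1.47 (0.66 centred) and Dnmt1 1.34 (0.53 centred). All 4 exceeded the median gene, and of them only Uhrf1 by more than 2-fold.

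The de novo enzymes were the lowest of the members that met the minimum. Dnmt3b had a ratio of 1.02 (0.21 centred). Dnmt3a had 0.56, which became -0.25 when centred on the median gene and -0.11 when scaled to the upper quartile, so the direction for Dnmt3a depends on the scaling. Dnmt3l, below the minimum, had a ratio of -0.73.

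**Figure D2:**
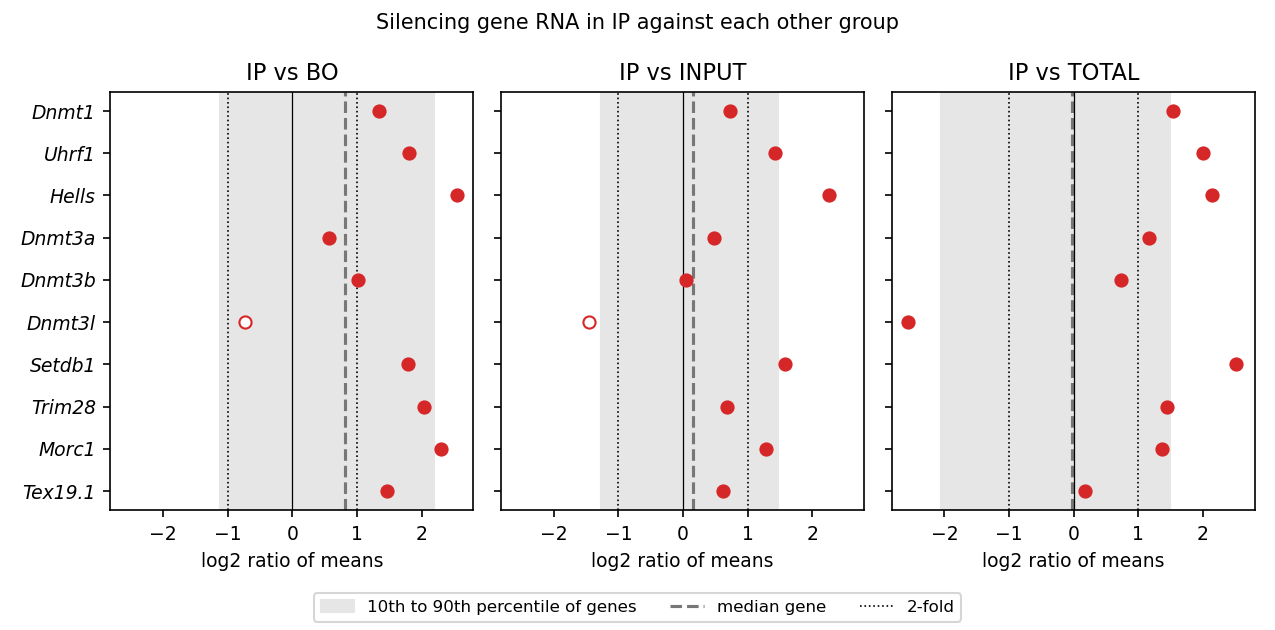
Log2 ratio of the IP mean to the BO, INPUT or TOTAL mean (pseudocount 1) of each silencing gene, with the range from the 10th to the 90th percentile of genes in grey, the median gene dashed and 2-fold dotted. Open points mark Dnmt3l where its mean was below 10, and Hells lies to the right of the grey band in all 3 panels (2.55, 2.27 and 2.14).

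IP against INPUT asks which RNAs of the pooled fractions the antibody took. Of the 9 members that met the minimum, 4 were more than 2-fold higher in IP, beside 20.5% of 14400 genes, and 0 were more than 2-fold lower, beside 14.6%. The median gene was 0.15 higher in IP, and after centring 4 were higher and 0 lower, beside 16.5% and 17.9% of genes. The members' median was 0.72 as deposited and 0.57 centred.

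The 4 were Hells at 2.27 (4.82-fold, 2.12 centred), Setdb1 at 1.58 (2.99-fold, 1.43 centred), Uhrf1 at 1.42 (2.68-fold, 1.27 centred) and Morc1 at 1.29 (2.45-fold, 1.14 centred). Hells exceeded 98.6% of genes and Setdb1 91.7%. Scaled by summed gene means, only Hells (1.74) and Setdb1 (1.05) stayed past 2-fold, beside 9.05% of genes.

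Dnmt1 had a ratio over INPUT of 0.72 (0.57 centred), Trim28 of 0.68 (0.53 centred) and Tex19.1 of 0.62 (0.47 centred). These were above the median gene and short of 2-fold. Dnmt3a had 0.48 (0.33 centred), and -0.05 when scaled by summed gene means. Dnmt3b had 0.05, and -0.10 when centred, -0.36 by upper quartile and -0.48 by summed means, so no direction is given for it. Dnmt3l, below the minimum here as well, had -1.46.

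IP against TOTAL compares the precipitate with the extract before fractionation. All 10 members met the minimum, 7 were more than 2-fold higher in IP, beside 20.4% of 14666 genes, and 1, Dnmt3l, was more than 2-fold lower, beside 26.2%. Dnmt3l met the minimum only through TOTAL, the group where it was high, so its place in this count was set by the filter. The median gene was at -0.03, and centring left these counts at 7 and 1, beside 21.1% and 25.7%. Scaling by summed gene means left 4 higher, beside 9.73% of genes. The members' median was 1.41, or 1.43 centred.

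Setdb1 had the highest ratio to TOTAL of the set, 2.51 (5.70-fold), above 98.6% of genes. Hells had 2.14 (4.40-fold) and Uhrf1 2.0006 (4.0016-fold). By summed gene means these 3 members were at 1.99, 1.62 and 1.48 and so stayed past 2-fold.

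Dnmt1 had a ratio to TOTAL of 1.54 (2.91-fold), Trim28 of 1.45 (2.72-fold), Morc1 of 1.37 (2.58-fold) and Dnmt3a of 1.16 (2.24-fold). By summed gene means Dnmt1 was at 1.02, Trim28 at 0.93, Morc1 at 0.85 and Dnmt3a at 0.65, so of these 4 only Dnmt1 stayed past 2-fold.

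Dnmt3b was at 0.74 against TOTAL. Tex19.1 was at 0.18, and at -0.03 by upper quartile and -0.34 by summed gene means, so its direction against TOTAL depends on the scaling. Dnmt3l had a ratio of -2.56 against TOTAL, from 32.7 to 4.72 counts, with the minimum met through TOTAL alone.

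The 3 comparisons share the IP libraries and are not independent. To see what each part of the procedure contributed, INPUT was set against TOTAL (sedimentation) and BO against INPUT (beads alone) on the joined scale. From TOTAL to INPUT the members' median was 0.63 against -0.16 for all genes, 0 members were more than 2-fold higher, beside 2.29% of 14627 genes, and 1 was more than 2-fold lower, beside 18.3%. Setdb1 had 0.93, Dnmt1 0.81, Trim28 0.77, Dnmt3b 0.69, Dnmt3a 0.69 and Uhrf1 0.58. Setdb1 exceeded 96.7% of genes and Dnmt1 94.3%. Morc1 (0.07), Hells (-0.13) and Tex19.1 (-0.44) were within 2-fold, at 0.24, 0.04 and -0.28 after centring. Dnmt3l, the member past 2-fold lower, was at -1.11, or -0.94 centred. After centring, Setdb1 (1.10) was the 1 member more than 2-fold higher, beside 5.15% of genes, and 0 were more than 2-fold lower, beside 14.4%.

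Setdb1 and Hells, the members with the highest ratios of IP to TOTAL, differed in how these divided between the steps. Setdb1 was higher at both steps, by 0.93 from TOTAL to INPUT and by 1.58 from INPUT to IP. Hells was at -0.13 and then at 2.27. For Dnmt3b the ratio was 0.69 from TOTAL to INPUT and 0.05 from INPUT to IP. All of these are differences between group means with no replicate spread.

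**Figure D3:**
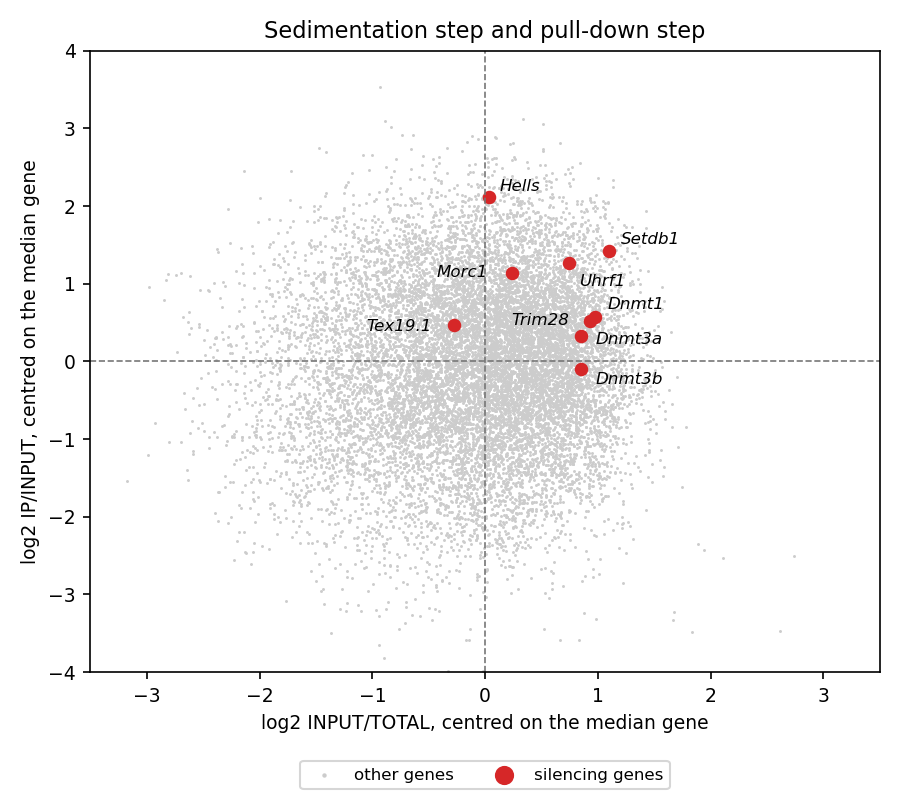
Each grey point is 1 gene and each red point a silencing gene, by its log2 ratio of INPUT to TOTAL (horizontal) and of IP to INPUT (vertical), both centred on the median gene, for 14144 genes of which 11 lie outside the axes. Of the 9 silencing genes plotted, Setdb1 (1.10, 1.43) is far right and high, Hells (0.04, 2.12) is high with no shift to the right, and Dnmt3b (0.85, -0.10) is far right with no shift upward. INPUT enters both axes, so the slope of the cloud carries no meaning.

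On beads alone, the median of the members lay close to that of all genes. From INPUT to BO it was -0.65 against -0.56 for all genes, 0 members were more than 2-fold higher, beside 9.4% of 14143 genes, and 2 were more than 2-fold lower, beside 34.4%. These 2 were Trim28 at -1.37 and Morc1 at -1.01. The highest were Dnmt3a at -0.08 and Setdb1 at -0.22. Dnmt3l, at -0.69, counted here with the minimum met only through INPUT (14.7 against 8.72 in BO). After centring 0 members were past 2-fold in either direction (Trim28 -0.81, Morc1 -0.44, Dnmt3a 0.48), beside 19.8% of genes higher and 18.3% lower.

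The other genes of the pathway were taken from a list of 55 symbols in 6 groups, of which 54 were listed in the tables. In IP against BO, 50 met the minimum mean. Of these, 26 were more than 2-fold higher and 5 lower as deposited, beside 43.9% and 11.2% of genes, and 10 were higher and 12 lower after centring, beside 18.3% and 24.1%. In IP against INPUT, 22 of 51 were higher and 2 lower, beside 20.5% and 14.6%, and 16 and 2 after centring, beside 16.5% and 17.9%. In IP against TOTAL, 22 of 51 were higher and 0 lower, beside 20.4% and 26.2%, and 23 and 0 after centring. Their medians were 1.03 (0.22 centred), 0.70 (0.55) and 0.84 (0.87) in the same order, and those of the members were 1.80 (0.99), 0.72 (0.57) and 1.41 (1.43).

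By group, counts more than 2-fold higher are read against 43.9% of genes over BO, 20.5% over INPUT and 20.4% over TOTAL, or 18.3%, 16.5% and 21.1% after centring, and counts lower over BO after centring against 24.1%. Genes of H3K9 methylation, HP1 and the HUSH complex had 10 of 14 over INPUT (9 centred) with a median of 1.30 (1.15 centred), and 8 of 14 over TOTAL (8 centred). Over BO they had 8 of 14, and after centring 4 higher and 3 lower. MORC and chromatin assembly genes had 4 of 8 over BO, 4 of 8 over INPUT and 5 of 8 over TOTAL, and after centring 1, 1 and 5, with 1 of 8 lower over BO. Germline silencing partners had 4 of 6, 2 of 6 and 4 of 6, and after centring 2, 2 and 4, with 1 of 6 lower over BO. Partners of TRIM28 (SUMO and KRAB zinc finger genes) had 5 of 7, 3 of 8 and 2 of 8, and after centring 2, 2 and 2, with 2 of 7 lower over BO. Genes of maintenance and removal of DNA methylation had 3 of 9, 2 of 9 and 2 of 9, and after centring 0, 2 and 3, with 3 of 9 lower over BO. Methyl-CpG binding proteins had 2 of 6, 1 of 6 and 1 of 6, and after centring 1, 0 and 1, with 2 of 6 lower over BO. The last pair of groups had the lowest medians over INPUT, 0.18 and 0.27 (0.03 and 0.12 centred).

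The naming rule, more than 2-fold in 1 direction in all 3 comparisons as deposited, was met by 13 higher and 0 lower genes of the 50 that met the minimum in all 3, beside 9.41% of 13566 genes higher by the same rule. After centring 6 were left, beside 5.53%, and they were Ddx4, Atf7ip2, Mphosph8, Kdm1a, Suv39h1 and Morc2b. The 10 with the highest ratio to BO are given in the order BO, INPUT, TOTAL, as deposited. Ddx4, the RNA helicase of the germ granule (mouse VASA homologue), had log2 ratios of 3.09, 2.21 and 2.33, with means of 2621 in TOTAL and 13185 in IP. Atf7ip2, a germline relative of the SETDB1 partner ATF7IP, had 2.61, 2.56 and 2.36. Mphosph8, the chromodomain subunit of HUSH, had 2.49, 2.04 and 1.75. All 3 were above Setdb1 in their ratio to BO.

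Kdm1a, a histone lysine demethylase, had 2.38, 1.62 and 1.68. Suv39h1, another H3K9 methyltransferase, had 2.32, 1.43 and 2.01. Morc2b, a paralogue of Morc1, had 2.03, 2.53 and 2.82. The highest ratio of the 10 to TOTAL was that of Morc2b, whose means were 119 in TOTAL and 839.9 in IP.

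Morc4 had 1.60, 1.02 and 1.64. Trim24, of the same protein family as TRIM28, had 1.54, 1.12 and 1.53, and Pphln1, a HUSH subunit, had 1.4998, 1.45 and 1.30. Setdb2, a relative of SETDB1, had 1.22, 1.48 and 1.63. After centring, Morc4, Trim24, Pphln1 and Setdb2 were short of 2-fold over BO (0.79, 0.73, 0.69 and 0.41), and Morc4 (0.87) and Trim24 (0.97) also over INPUT. The remaining 3 were Uhrf2, Tex15 and Chaf1a, at 0.34, 0.25 and 0.19 over BO after centring.

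The lowest ratio to BO was that of Tet1, which encodes an enzyme that oxidises methylated cytosine. Its mean was 190.2 in TOTAL, 258 in INPUT, 1488 in BO and 179 in IP. BO stood far above the other 3 groups, which were close, and the log2 ratio of IP to BO was -3.05. The other genes more than 2-fold lower in IP than in BO, named after their values were seen, were Tet2 (-1.91), Zbtb33 (-1.60), Cbx5 (-1.38) and Zfp809 (-1.004). Those more than 2-fold lower than in INPUT were Sumo2 (-1.14) and Zfp57 (-1.02). Sumo2 met the minimum there only through INPUT (22.9 against 9.82 in IP), it is known to have processed copies in the genome, and the part of reads shared with them was not tested. Whether BO replicate 3 accounts for the high BO means was not tested.

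**Figure D4:**
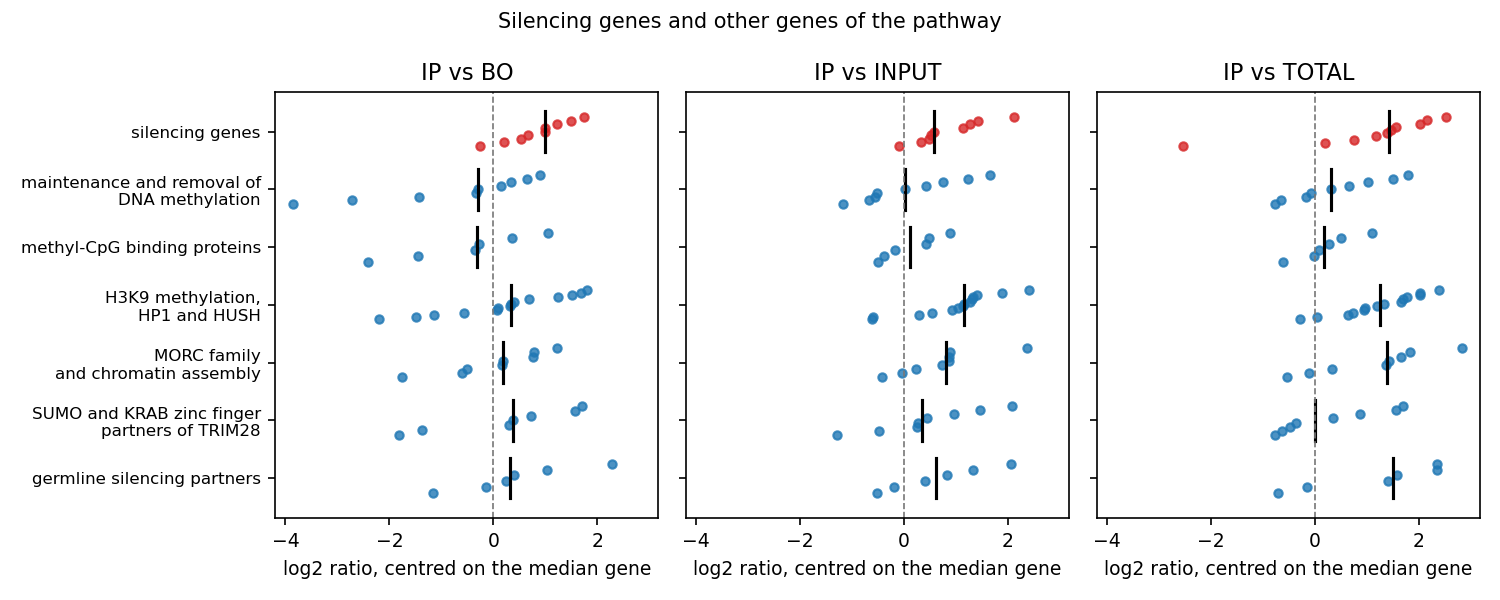
Log2 ratio of IP to BO, INPUT or TOTAL, centred on the median gene, of the silencing genes (red) and of the other pathway genes by group (blue), 1 point per gene that met the minimum mean, with black bars at group medians. Most red points lie to the right of 0, Dnmt3l is the red point at -2.53 against TOTAL, and the H3K9, HP1 and HUSH group has 12 of 14 genes above the median gene over INPUT.

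The tissue was checked against markers of its cell types. All 6 spermatocyte markers were more than 2-fold higher in IP in each comparison, beside 43.9% of genes over BO, 20.5% over INPUT and 20.4% over TOTAL. Their summed level was 23498 in TOTAL, 25053 in INPUT, 15883 in BO and 156410 in IP, 6.66-fold higher in IP than in TOTAL. The 6 Sertoli cell markers summed to 19806 in TOTAL, 11322 in INPUT, 11643.5 in BO and 5115 in IP (3.87-fold lower in IP than in TOTAL). The 5 Leydig cell markers summed to 77858, 42334, 7428 and 15260 in the same order, so IP was 5.10-fold lower than TOTAL but above BO. As deposited, 2 of these 5 markers were more than 2-fold higher in IP than in BO, beside 43.9% of genes. After centring 0 were, beside 18.3%. The 6 spermatogonial markers summed to 7786, 6073, 7745 and 3770.2 (2.07-fold lower in IP than in TOTAL). Kit alone was at 5892 in BO. Against BO, 2 of these 6 were more than 2-fold higher in IP and 2 lower as deposited, beside 43.9% and 11.2% of genes. After centring 1 was higher and 2 lower, beside 18.3% and 24.1%. More than 2-fold lower against TOTAL were 4 of 6 Sertoli, 5 of 5 Leydig and 2 of 6 spermatogonial markers, beside 26.2% of genes. The 2 spermatogonial markers were Dmrt1 and Uchl1. Of these 4 lists none had a marker at 0 in any group. Of the 6 spermatid markers, Spaca1 was at 232 in TOTAL and 234 in IP, while Prm1, Prm2, Tnp1, Tnp2 and Acrv1 were between 11.7 and 39.5 in TOTAL and below 1 in IP. Marker levels thus differed between the same groups as the silencing genes did, and their part in those ratios was not tested. INPUT, BO and IP are fractions of testis extract, so these sums are levels of RNA in a fraction and not numbers of cells. For the low spermatid level in TOTAL itself, fewer cells of a type and less RNA per cell cannot be told apart.

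The members share little in position or structure. They lie on 10 different chromosomes in mm10: Dnmt1 at chr9:20907209-20959888, Uhrf1 at chr17:56303321-56323486, Hells at chr19:38930915-38971051, Dnmt3a at chr12:3806007-3914443, Dnmt3b at chr2:153649450-153687730, Dnmt3l at chr10:78041947-78063622, Setdb1 at chr3:95323525-95357202, Trim28 at chr7:12999114-13031035, Morc1 at chr16:48431237-48630900 and Tex19.1 at chr11:121146143-121148319. Dnmt1 and Setdb1 are on the minus strand and the others on the plus strand. Which parts of a gene were counted is not given in the sources used here. The longest annotated transcript ran from 1745 bases in Tex19.1 to 9685 in Dnmt3a, and both of these members were short of 2-fold in IP against INPUT. Its GC content was lowest in Hells (37.7%), the member with the highest IP mean count. It was highest in Trim28 (59.6%), the member with the highest IP level per kilobase of the longest transcript. By the median transcript length, Hells had the highest IP level per kilobase, at 29987 against 16564 for Trim28. Over the 10 members this is a description, and no relation with length or GC was computed.

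Some exons overlap those of other genes on the opposite strand. Setdb1 shares 75 bases with Cers2 and 249 with Gm37500, Dnmt3l shares 67 with Aire, and Dnmt3a shares 133 with Dnmt3aos. The library kit keeps strand, and whether counting used it is not stated. Dnmt3aos had a mean below 1 in each group and Aire at most 2.78, whereas Cers2 had 1937 in TOTAL and 1399.7 in IP of the same table, with log2 ratios of 2.25 to BO, 0.03 to INPUT and -0.47 to TOTAL. Gm37500 was not listed under that symbol, so no value can be given for it. The part of these overlaps in the values of Setdb1, Dnmt3l and Dnmt3a was not tested.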

How the data were processed

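RNA was sequenced by the authors from 12 libraries, with groups taken from the labels, after rRNA depletion with a stranded kit. Per the submitters' notes, the authors used STAR (2.6.0c) with the mm10 genome for mapping and DESeq2 (1.24.0) to normalise counts. The annotation and the use of strand in counting are not given in the sources used here. The deposited signal used here is the mean normalised count per gene and group, in 3 tables of 802920 rows. The tables also hold the authors' fold changes, standard errors, test statistics and p-values, which were not used. The deposited signal of the repeat table, a normalised count per subfamily and library, served only for rRNA shares. The 4 rows for reads without a gene (22.1% of the summed means in IP, 30.5% in INPUT, 37.9% in BO and 38.6% in TOTAL) were left out.

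With the authors' own comparisons set aside, only group means were left, and no test was made from them. Ratios were computed with Python (3.11.15) and pandas (2.3.3), with a pseudocount of 1, a minimum mean of 10 and a 2-fold limit, and the calculation was tested on simulated data. Groups were joined through the IP means of genes at 500 or more. Transcripts, coordinates and sequences came from GENCODE M21 (GRCm38, the mm10 build). All 10 members were named. Of the pathway list, genes past 2-fold in 1 direction in all 3 comparisons with a mean of at least 100 in the higher group were named, at most 10, and the lowest IP to BO ratio. The members and lists were chosen with earlier results of these data known. Steps between groups other than IP, ratios between members and overlapping genes were chosen after seeing the data. Signal of repeats inside introns of the members was planned and not run, since the repeat rows carry no position.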

Additional observations from a re-analysis of the deposited data

How the results depend on the processing

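Each comparison of IP with another group was recomputed with other scalings, pseudocounts (0.1 and 10) and minimum means (none and 100). Of the recomputed summary values, 84 kept their call or stayed within 1.5 times and 21 moved. The steps from TOTAL to INPUT and from INPUT to BO, and the counts of genes highest in IP, were given only as deposited and centred. For IP against BO, members more than 2-fold higher numbered 4 when centred on the median gene and 5 by upper quartile, and their median became 0.99 when centred. Pathway genes higher than in BO numbered 10 when centred, 11 by upper quartile and 16 by summed means, and lower ones 12 when centred and 12 by upper quartile, with 6 by summed means. All genes moved alike over BO, from 43.9% higher and 11.2% lower as deposited to 18.3% and 24.1% centred, 22.2% and 21.5% by upper quartile, and 34.1% and 15% by summed means. Against INPUT, 2 members were higher by summed means, and 1 was lower with no minimum (Dnmt3l). Pathway genes higher than in INPUT numbered 12 by upper quartile and 8 by summed means, and lower ones 4 by summed means, 0 with a pseudocount of 10 and 0 with a minimum of 100, beside 11.1% of genes higher by upper quartile, and 9.05% higher and 28.3% lower by summed means. Against TOTAL, 4 members were higher by summed means, with a median of 0.89, and 0 were lower with a minimum of 100, which leaves out Dnmt3l. Pathway genes lower than in TOTAL numbered 2 by upper quartile, 8 by summed means and 2 with no minimum, beside 30.9% of genes lower by upper quartile, and 9.73% higher and 38.1% lower by summed means. Shares of all genes were not computed with the other pseudocounts and minimum means. Counts given under those settings therefore have no share to be read against, and nothing is drawn from them. The cause of the scaling shifts was not tested.

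No paired analysis was possible because the gene values are group means with no library of their own. For the same reason no library was left out, BO replicate 3 included, depth is unknown, and replicate spread was not used. The intronic repeat result and its alternatives were not run, since the repeat rows carry no position.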
